A study of Mus musculus with 8 samples.

Results

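Ribosome biogenesis genes are described here in the small intestine (the jejunum, by the design text) of mice exposed to carbon-ion radiation after a pretreatment. The set holds 37 genes, chosen by name for their roles in building ribosomes, and each is read through the Agilent array probes that carry its name. Of the 37 genes, 36 were measured, among 21843 genes measured in all. The only probe of Utp18, a gene of the small-subunit processome, was not well above background on any of the 8 arrays, so it has no value. The probes used for the other 36 genes were well above background on all 8 arrays, and none was saturated.

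The mice were BALB/cA Jcl females, 8 weeks old, and RNA was taken 4 hours after exposure. The 4 groups held 2 arrays each. They were 8 Gy after FGF1/CPP-C, 8 Gy after FGF1, 8 Gy after saline, and 0 Gy after saline, each agent having been injected into the abdomen 12 hours before exposure. FGF1 is fibroblast growth factor 1, a mitogen that binds FGF receptors, and FGF1/CPP-C is FGF1 joined to the cell-penetrating peptide CPP-C. No group received FGF1 or FGF1/CPP-C without radiation, so the effect of either agent on unexposed tissue was not analysed here. No label states that each array is a different animal, so p-values cover the spread between arrays, which may be technical. Arrays numbered 1 shared 1 slide and arrays numbered 2 the other. The tissue is bulk, so fewer cells of a type and less RNA per cell cannot be told apart.

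Ribosomes are assembled in the nucleolus. RNA polymerase I transcribes the long precursor of the ribosomal RNAs, small nucleolar ribonucleoproteins (snoRNPs) guide its chemical modification, and the small-subunit processome folds and cuts the part that becomes the small subunit. A separate set of factors, among them the PeBoW complex, matures the large subunit. Many of these genes are targets of the transcription factor MYC, which binds the E-box motif CACGTG, and ribosome assembly is known to be most active in proliferating cells such as those of the intestinal crypt.

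The gene on which the results turn is Utp20, which encodes a very large scaffold protein of the small-subunit processome. Its only probe, printed first because all Utp20 values come from it, lies on the minus strand of mouse build mm9 at chr10:88209709-88209768, the position the array's annotation gives it, and 1 of its 3 forward reading frames holds no stop codon. The promoter windows of the 3 genes with the highest mean difference after irradiation follow, from RefSeq on GRCm38.p6, each with 250 bases before and 50 after the gene start. They are Utp20 on the minus strand at chr10:88826765-88827064, Polr1b on the plus strand at chr2:129100746-129101045 and Nop2 on the plus strand at chr6:125131633-125131932. Capitals mark the motif CACGTG, which reads the same on both strands.
Utp20 probe: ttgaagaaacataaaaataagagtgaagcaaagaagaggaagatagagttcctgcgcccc
Utp20 promoter: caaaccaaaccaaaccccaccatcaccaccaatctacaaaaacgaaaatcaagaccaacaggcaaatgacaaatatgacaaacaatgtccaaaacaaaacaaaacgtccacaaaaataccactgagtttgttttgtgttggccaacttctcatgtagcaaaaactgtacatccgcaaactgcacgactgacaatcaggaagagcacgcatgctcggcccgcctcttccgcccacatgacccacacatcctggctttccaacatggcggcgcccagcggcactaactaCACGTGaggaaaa
Polr1b promoter: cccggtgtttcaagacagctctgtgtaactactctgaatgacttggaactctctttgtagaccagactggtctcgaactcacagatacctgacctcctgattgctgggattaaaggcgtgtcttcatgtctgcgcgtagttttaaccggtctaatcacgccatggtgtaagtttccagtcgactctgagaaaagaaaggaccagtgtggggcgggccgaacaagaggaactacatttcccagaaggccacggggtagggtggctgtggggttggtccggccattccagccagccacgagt
Nop2 promoter: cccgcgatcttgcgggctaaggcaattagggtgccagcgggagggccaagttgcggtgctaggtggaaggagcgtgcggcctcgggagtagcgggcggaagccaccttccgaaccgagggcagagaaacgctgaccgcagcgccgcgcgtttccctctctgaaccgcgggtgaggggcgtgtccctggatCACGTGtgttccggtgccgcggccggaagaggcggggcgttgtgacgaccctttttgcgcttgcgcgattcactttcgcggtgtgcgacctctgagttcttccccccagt

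RefSeq windows were found for 32 of the 37 genes. The letters CACGTG stood in 8 of these 32, or 25%, and in 8.09% of the 27025 genes with a window. The 8 genes were Imp4, Nop2, Ltv1, Utp20, Pes1, Tsr1, Utp18 and Wdr43, and in 5 of them the motif lay after the gene start. In Utp20 it began 38 bases after the start and in Nop2 60 bases before it (-60), while the Polr1b window held none. Among the other genes named for their values below, the motif stood in the windows of Pes1, Tsr1, Ltv1 and Wdr43 and not in those of Polr1a, Polr1e, Rrp9, Nop10, Ddx10, Ddx21, Bysl, Utp14a, Gnl3 and Nop16, while Fbl, Rrp12 and Bop1 had no window. A match is a description of the letters and no evidence of binding.

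Values are given as normalised log2 signals, the log2 of an array's processed signal minus that array's 75th percentile, which lay between 1735 and 2165 intensity units. A value of 0 thus equals the 75th percentile, and levels of different genes cannot be compared because each probe binds differently. A gene passed where limma's adjusted p, over all genes of a comparison, was under 0.05. All 12 absorptive enterocyte markers, such as Sis and Alpi, were well above background on every array, with list medians between 6.15 and 7.02. Arrays 1 and 2 of a group correlated at 0.982 to 0.994 across genes, which are not independent replicates. On 3 arrays, FGF1 array 1, 8 Gy saline array 2 and 0 Gy saline array 1, the median of 13 stomach antrum markers was 0.02, 1.95 and 0.77, against -6.43 to -3.99 on the other 5. Pancreatic acinar markers were also high on 8 Gy saline array 2 and 0 Gy saline array 1, with medians of 2.85 and 5.25, against -5.36 to -1.94 elsewhere, FGF1 array 1 included (-4.84). The medians of 8 crypt base stem cell markers, such as Lgr5, were also highest on those 3 arrays (-0.70, -0.11 and -0.28), against -1.70 to -0.86 on the other 5. Of 10 proliferation genes, a list that includes Mki67 and Ccnb1, the median lay between -0.25 and 0.27 on the 6 irradiated arrays and at 0.67 and 0.80 on the 0 Gy arrays. The part of these differences in the results below was not tested, and values without the 3 arrays high in antrum markers are given where a result rests on them.

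The summed level of the antrum list, on the linear scale relative to the 75th percentile, divided the arrays in another way. It was 1.05 and 0.754 on the FGF1/CPP-C arrays, against 1020 and 436 after FGF1, 433 and 1191 in 8 Gy saline, and 1144 and 811 in 0 Gy saline. Of the 13 markers, Tff2, Tff1 and Vsig1 were well above background on no FGF1/CPP-C array and on all 6 others. Tff2, a trefoil peptide of the antrum and of Brunner glands, was at -6.02 and at the floor of -6.74 on the FGF1/CPP-C arrays, against 8.15 to 8.99 on the other 6. Gkn3 was at -1.66 and -1.82, against 7.18 to 8.37, and such bright markers weigh most in a linear sum. Gkn2, Muc5ac, Gast, Gkn1, Capn8, Psca and Muc1 did not divide the arrays so. Their FGF1/CPP-C values overlapped those of 8 Gy saline array 1, 0 Gy saline array 2 and FGF1 array 2. The summed level of the 3 measured Brunner gland markers was 2.77 and 2.55 on the FGF1/CPP-C arrays, against 289 to 509 elsewhere. Its other 2 markers did not set these arrays apart, Pdx1 being at 1.45 and 1.33, against 1.23 to 1.94, and Egf at -5.36 and -5.29, against -5.52 to -3.90. Every comparison with FGF1/CPP-C below sets arrays with little Tff2 and Gkn3 signal against arrays with more. The irradiated mean holds 2 arrays with little of it, of 6, and the part of this signal in the results was not tested.

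After irradiation, 1 of the 36 measured genes passed the test, Utp20, and it rose in every irradiated group. In the mean of the 3 irradiated groups against 0 Gy saline, 1.33% of all genes passed upward and 1.07% downward. This mean includes the FGF1 and FGF1/CPP-C groups, whose agents the 0 Gy group did not receive, so it combines radiation with pretreatment. Differences after irradiation are those of this mean where no group is named. The other 35 genes shifted by less than 1.5-fold in that comparison, and most lay slightly above 0. The log2 fold change was positive in 28 of the 36, against 42.5% of all genes, with a median of 0.16, against -0.04 over all genes tested. Of the 35 genes with a value on every array, 17 were higher on each irradiated array than on both 0 Gy arrays, where 10.5% of all genes were, and 3 were lower on each, where 12.3% were. At an unadjusted p under 0.05, 11 of the 36 were higher (9.3% of all genes) and 3 lower (11.3%). The median was 0.15 within slide 1 and 0.17 within slide 2, and 0.14 without the 3 arrays high in antrum markers, over 35 genes.

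**Figure D1:**
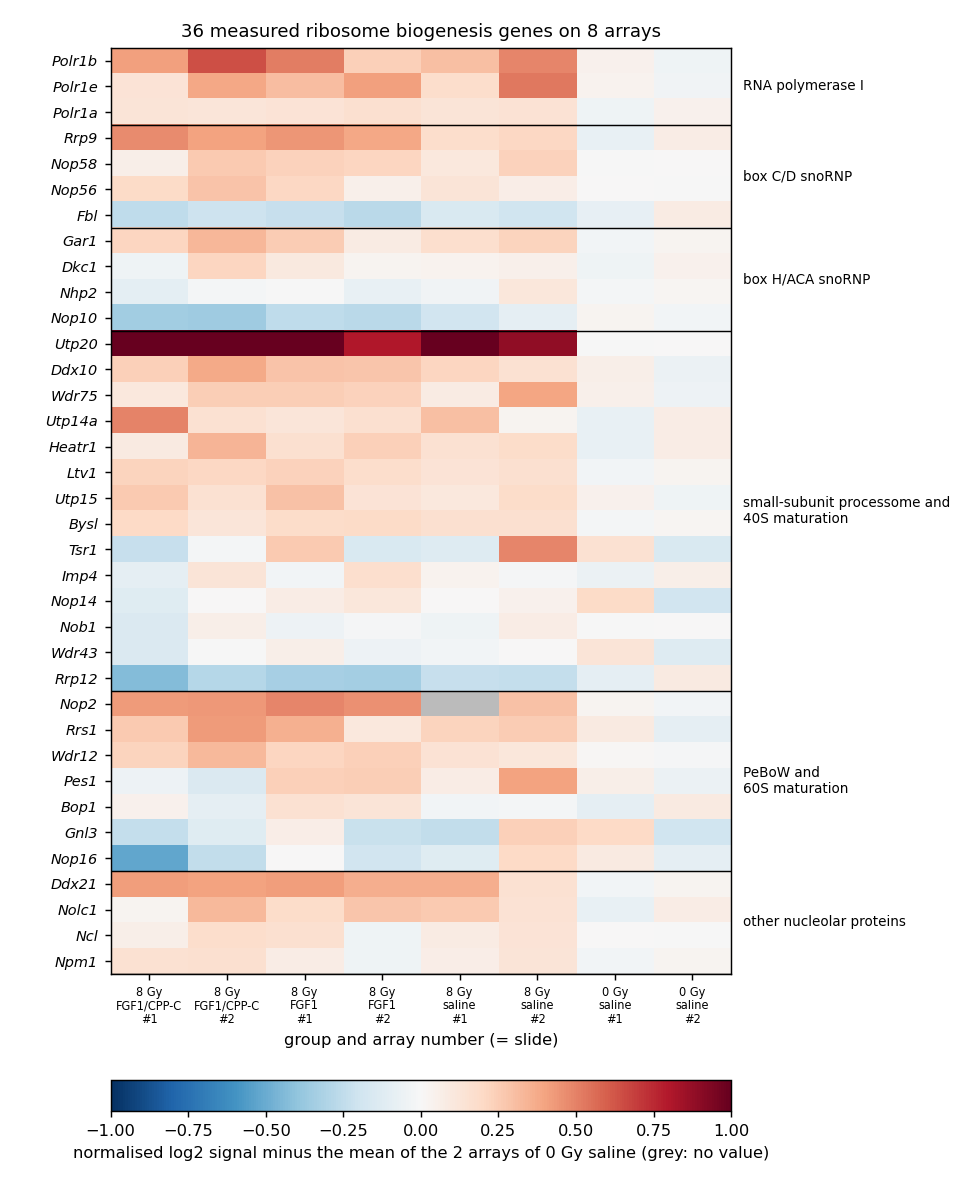
Normalised log2 signal of the 36 measured genes on each of the 8 arrays, minus the mean of the 2 arrays of 0 Gy saline, with genes in rows by role and arrays in columns. Utp20 is the darkest row on the 6 irradiated arrays, Rrp12, Nop10 and Fbl are below 0 on all 6, and the grey cell is Nop2 on 8 Gy saline array 1, which has no value.

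Utp20 had processed signals of 439 and 431 intensity units after FGF1/CPP-C, 459 and 381 after FGF1, 435 and 431 in 8 Gy saline, and 201 and 187 in 0 Gy saline. On the normalised log2 scale these were -2.13 and -2.21 after FGF1/CPP-C, -2.22 and -2.42 after FGF1, -2.22 and -2.33 in 8 Gy saline, and -3.22 and -3.21 in 0 Gy saline. All 6 irradiated arrays were higher than both 0 Gy arrays, with no overlap. The FGF1 and 8 Gy saline arrays overlapped, and the FGF1/CPP-C arrays lay just above both. The mean of the irradiated groups exceeded 0 Gy saline by 0.96 ± 0.09 on the log2 scale (SE; 95% interval 0.75 to 1.18), or 1.95-fold, with an adjusted p of 0.0109 by limma. Against 0 Gy saline the log2 fold change was 1.05 in 8 Gy FGF1/CPP-C (adjusted p = 0.0214 by limma), 0.90 in 8 Gy FGF1 (0.0330) and 0.94 in 8 Gy saline (0.0392), each with an SE of 0.11. These 3 comparisons share the same 2 arrays of 0 Gy saline. Within slide 1 the irradiated mean was 1.03 above the 0 Gy array, and within slide 2 it was 0.89 above it.

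The Utp20 difference kept its size when arrays were left out, and its call did not. Without 0 Gy saline array 1 the irradiated difference was 0.96, with an adjusted p of 0.122 by limma, and without 0 Gy saline array 2 it was 0.97, with an adjusted p of 0.110. Without the 3 arrays high in antrum markers it was 0.94, with an adjusted p of 0.281. For 8 Gy saline against 0 Gy saline, leaving out any 1 of the 8 arrays gave a limma adjusted p between 0.0917 and 0.237, with differences of 0.89 to 1.00. FGF1/CPP-C against 0 Gy saline stayed past the threshold without either 8 Gy saline array (adjusted p = 0.0288 by limma) and missed it without any other array (0.0552 to 0.137). FGF1 against 0 Gy saline did the same, with 0.0486 without either 8 Gy saline array and 0.0908 to 0.199 without any other. The irradiated mean kept its call without any 1 irradiated array, with an adjusted p of 0.0247 to 0.0485 by limma. With the slide as a block, 8 Gy saline against 0 Gy saline had an adjusted p of 0.0553 and FGF1 against 0 Gy saline one of 0.0551 by limma, while FGF1/CPP-C against 0 Gy saline stayed at 0.0401 and the irradiated mean at 0.0196.

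**Figure D2:**
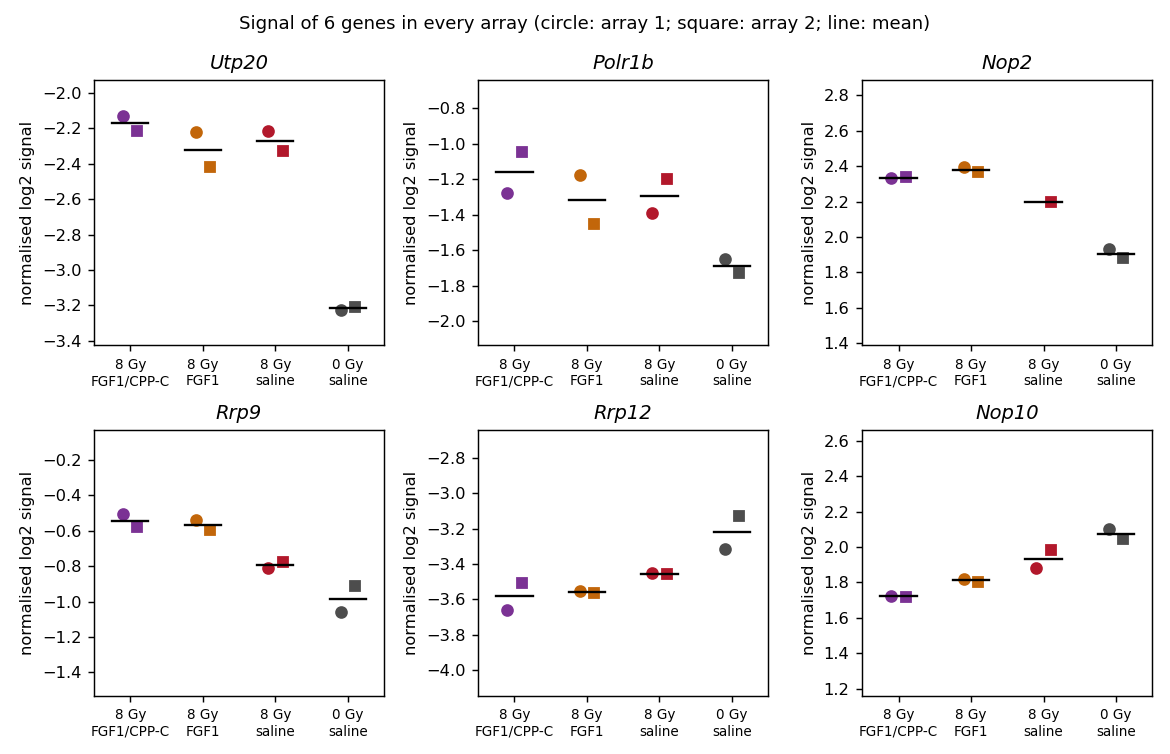
Normalised log2 signal of 6 genes on each array, by group, with circles for array 1, squares for array 2 and lines for group means. Utp20 lies between -2.42 and -2.13 on the 6 irradiated arrays and at -3.22 and -3.21 on the 0 Gy arrays, Polr1b, Nop2 and Rrp9 are also lowest at 0 Gy, and Rrp12 and Nop10 are highest there.

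The 3 measured RNA polymerase I genes were higher on all 6 irradiated arrays than on both 0 Gy arrays, and none passed the test. Polr1b, the second-largest catalytic subunit, had signals of -1.28 and -1.04 after FGF1/CPP-C, -1.18 and -1.45 after FGF1, -1.39 and -1.20 in 8 Gy saline, and -1.65 and -1.73 in 0 Gy saline. Its irradiated mean differed from 0 Gy saline by 0.43 ± 0.12 (log2, SE; 95% interval 0.14 to 0.72), with an adjusted p of 0.122 by limma. Polr1e, a subunit that acts when transcription starts, had -1.41 and -1.15 after FGF1/CPP-C, -1.23 and -1.13 after FGF1, -1.36 and -1.01 in 8 Gy saline, and -1.51 and -1.57 in 0 Gy saline. The Polr1e difference was 0.32 ± 0.12 (adjusted p = 0.220 by limma), and the arrays of slide 2 were further apart (0.47) than those of slide 1 (0.17). Polr1a, the largest catalytic subunit, differed by 0.14, with an interval of -0.03 to 0.31. Its 6 irradiated arrays all lay between -0.49 and -0.45, above -0.65 and -0.57 at 0 Gy.

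Among the 4 box C/D snoRNP proteins, which carry out or position the methylation of ribosomal RNA, 3 had positive differences after irradiation and Fbl a negative one, and none passed. Rrp9, the protein specific to the U3 particle, had -0.51 and -0.58 after FGF1/CPP-C, -0.54 and -0.60 after FGF1, -0.81 and -0.78 in 8 Gy saline, and -1.06 and -0.91 in 0 Gy saline. The groups stood in steps without overlap, 0 Gy saline lowest, 8 Gy saline next and both FGF1 groups highest, these overlapping each other. The irradiated mean of Rrp9 differed from 0 Gy saline by 0.35 ± 0.08 (adjusted p = 0.0802 by limma), and FGF1/CPP-C with radiation by 0.44 (0.0794). With radiation and saline alone, Rrp9 differed by 0.19. The only Rrp9 probe has no position in the array's annotation. Fbl, the methyltransferase fibrillarin, had 1.18 and 1.22 after FGF1/CPP-C, 1.20 and 1.17 after FGF1, 1.28 and 1.23 in 8 Gy saline, and 1.36 and 1.51 in 0 Gy saline. All irradiated arrays lay below both 0 Gy arrays, with a mean difference of -0.22 (interval -0.41 to -0.03; adjusted p = 0.193 by limma). The array's annotation places the only Fbl probe on chromosome 17, whereas RefSeq has Fbl on chromosome 7, so its identity is uncertain. Nop58 and Nop56, the scaffold pair of these particles, differed by 0.18 and 0.15 and did not overlap between the irradiated and the 0 Gy arrays.

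The 4 box H/ACA snoRNP proteins, which convert uridine to pseudouridine, went different ways and none passed. Nop10, the smallest core protein, had 1.72 on both arrays after FGF1/CPP-C, 1.82 and 1.80 after FGF1, 1.88 and 1.98 in 8 Gy saline, and 2.10 and 2.05 in 0 Gy saline. For Nop10 none of the 4 groups overlapped, with 0 Gy saline highest and FGF1/CPP-C lowest. The irradiated mean of Nop10 differed by -0.25 ± 0.07 (interval -0.43 to -0.08; adjusted p = 0.130 by limma), and 8 Gy FGF1/CPP-C differed from 0 Gy saline by -0.35 (0.104). For 8 Gy saline alone, the Nop10 difference was -0.14. Gar1 differed by 0.21, higher on all 6 irradiated arrays, while Dkc1, the pseudouridine synthase dyskerin, and Nhp2 differed by 0.06 and -0.02, with intervals that included 0.

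In the small-subunit group, 14 of 15 genes were measured, 11 had positive differences after irradiation and 1, Utp20, passed. Rrp12, which takes part in export and maturation of the small subunit, had -3.66 and -3.51 after FGF1/CPP-C, -3.55 and -3.56 after FGF1, -3.45 and -3.46 in 8 Gy saline, and -3.31 and -3.13 in 0 Gy saline. It was lower on all 6 irradiated arrays than on both 0 Gy arrays, with a difference of -0.31 ± 0.09 (log2, SE; interval -0.52 to -0.10; adjusted p = 0.125 by limma). The array's annotation gives no position to the only probe of Rrp12, nor to those of Rrp9, Nop14 and Nob1. Ddx10, an RNA helicase of the early processome, lay between -2.50 and -2.27 on the 6 irradiated arrays, above -2.60 and -2.71 at 0 Gy, a difference of 0.26 (adjusted p = 0.153 by limma). Ltv1 and Bysl, both factors of late small-subunit assembly and export, differed by 0.19 and 0.17 without overlap. Their irradiated arrays spanned 1.04 to 1.14 for Ltv1 and 1.05 to 1.13 for Bysl, and their 0 Gy arrays were at 0.88 and 0.93 and at 0.91 and 0.95.

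Of the processome subcomplex that in yeast joins the precursor first and is linked to its transcription, Utp15, Wdr75 and Heatr1 differed by 0.19, 0.22 and 0.19 after irradiation, each without overlap, and Wdr43 by -0.03. The 2 probes of Wdr43 did not go together. The brighter one, used here, had -0.73 and -0.58 after FGF1/CPP-C, -0.52 and -0.63 after FGF1, -0.61 and -0.58 in 8 Gy saline, and -0.45 and -0.71 in 0 Gy saline, so that the groups overlapped. The dimmer one had -1.20 and -1.12 after FGF1/CPP-C, -1.15 and -1.29 after FGF1, -1.18 and -1.16 in 8 Gy saline, and -1.39 and -1.60 in 0 Gy saline, a difference of 0.31 with no overlap. Utp14a, a factor that in yeast activates a processome helicase, had -1.52 and -1.85 after FGF1/CPP-C, -1.89 and -1.85 after FGF1, -1.71 and -1.98 in 8 Gy saline, and -2.09 and -1.93 in 0 Gy saline. Its groups overlapped, and its second probe gave an irradiated difference of 0.10 where the one used gave 0.21. Nop14, Imp4 and Nob1, the last of these the nuclease that trims the small-subunit RNA, differed by 0.02, 0.03 and -0.02.

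The 3 genes Tsr1, Gnl3 and Nop16 had their highest values on the same 3 arrays, which belong to different groups. Tsr1, a small-subunit factor related to GTPases, had -1.21 and -0.997 after FGF1/CPP-C, -0.72 and -1.13 after FGF1, -1.11 and -0.49 in 8 Gy saline, and -0.82 and -1.13 in 0 Gy saline. Gnl3, the nucleolar GTPase nucleostemin, had -2.30 and -2.19 after FGF1/CPP-C, -2.001 and -2.29 after FGF1, -2.32 and -1.83 in 8 Gy saline, and -1.86 and -2.27 in 0 Gy saline. For both genes the highest 3 arrays were 8 Gy saline array 2, 0 Gy saline array 1 and FGF1 array 1, the same 3 arrays on which antrum markers were high. Nop16, a large-subunit factor, had -1.51 and -1.23 after FGF1/CPP-C, -0.99 and -1.18 after FGF1, -1.11 and -0.79 in 8 Gy saline, and -0.90 and -1.08 in 0 Gy saline, with the same 3 arrays highest. The median of the crypt base stem cell markers was highest on these arrays too, and that of the acinar markers on the 2 saline arrays among them. The summed level of the crypt list was not, at 16.05 on FGF1 array 1 against 17.04 on 0 Gy saline array 2. The part of these differences in the 3 genes was not tested.

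**Figure D3:**
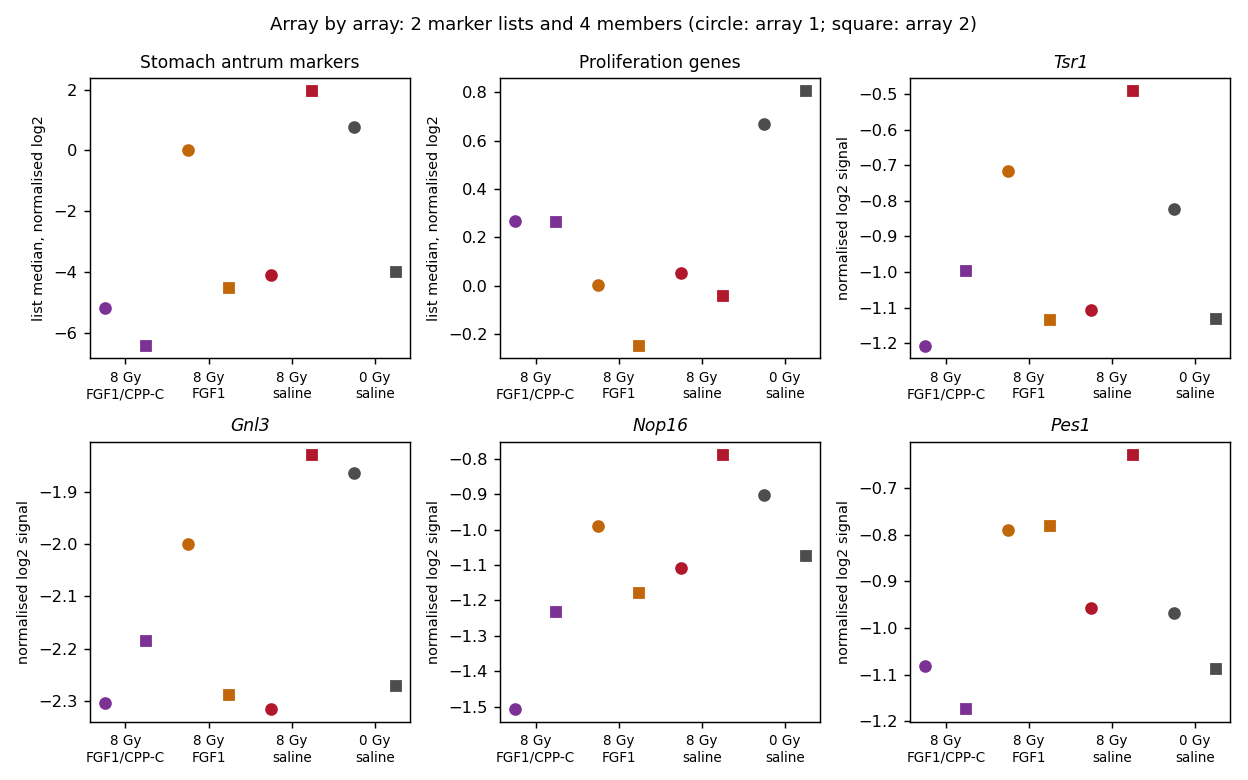
Array-by-array values of the median of 13 stomach antrum markers, the median of 10 proliferation genes, and Tsr1, Gnl3, Nop16 and Pes1, all on the normalised log2 scale, by group, with circles for array 1 and squares for array 2. The antrum median is at or above 0.02 on 3 arrays and at or below -3.99 on 5, and Tsr1, Gnl3 and Nop16 are highest on those 3 arrays.

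Among the 7 large-subunit factors, 5 had positive differences after irradiation, and none passed. Nop2, a methyltransferase of large-subunit RNA, had 2.33 and 2.34 after FGF1/CPP-C, 2.39 and 2.36 after FGF1, 2.20 on the 1 measured array of 8 Gy saline, and 1.93 and 1.88 in 0 Gy saline. The other 8 Gy saline array carried an outlier mark at this probe, so the fit left it out. All 5 measured irradiated arrays were above both 0 Gy arrays, and the irradiated mean differed by 0.40 ± 0.08 (interval 0.20 to 0.59; adjusted p = 0.0758 by limma). That p was 0.0429 with normexp background correction, 0.0278 with no filter on dim probes and 0.0403 with limma's trend and robust options. In the other 13 of 16 alternative settings Nop2 did not pass, and its differences ranged from 0.37 to 0.44 over the 16. The 1 measured array of 8 Gy saline alone was 0.29 above 0 Gy saline. Rrs1, which helps bring the 5S RNA particle into the large subunit, differed by 0.27, between -1.46 and -1.14 on the 6 irradiated arrays and at -1.48 and -1.66 at 0 Gy.

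The PeBoW proteins Bop1, Pes1 and Wdr12 work as 1 complex, and their transcripts did not move alike. Wdr12 differed by 0.21 (irradiated arrays 0.13 to 0.34, 0 Gy arrays 0.03 and 0.00), Pes1 by 0.13 and Bop1 by 0.03. Between 8 Gy saline alone and 0 Gy saline, the Pes1 difference was 0.24. Pes1 had -1.08 and -1.17 after FGF1/CPP-C, -0.79 and -0.78 after FGF1, -0.96 and -0.63 in 8 Gy saline, and -0.97 and -1.09 in 0 Gy saline. The FGF1/CPP-C arrays thus lay next to those of 0 Gy saline, below the other irradiated arrays. Bop1 had 1.96 and 1.82 after FGF1/CPP-C, 2.07 and 2.04 after FGF1, 1.89 on both arrays in 8 Gy saline, and 1.83 and 2.01 in 0 Gy saline. A second, dimmer Pes1 probe gave an irradiated difference of -0.21, the opposite sign to the one used, and the Wdr12 probe used is annotated to chromosome 7 where RefSeq has the gene on chromosome 1.

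All 4 remaining nucleolar proteins had positive differences after irradiation. Ddx21, an RNA helicase that works both on RNA polymerase I transcription and on snoRNPs, had 0.19 and 0.17 after FGF1/CPP-C, 0.18 and 0.13 after FGF1, 0.13 and -0.08 in 8 Gy saline, and -0.26 and -0.21 in 0 Gy saline. The irradiated mean differed by 0.35 ± 0.09 (interval 0.14 to 0.56; adjusted p = 0.0954 by limma) without overlap, and the second Ddx21 probe gave 0.13. Nolc1, a chaperone of snoRNPs, differed by 0.20, Ncl (nucleolin) by 0.09 and Npm1 (nucleophosmin) by 0.09. The probes used for Npm1 and Nop56 are annotated to chromosomes 10 and 17, where RefSeq has the genes on 11 and 2, and their other probes gave 0.05 to 0.20 and 0.06 to 0.13.

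**Figure D4:**
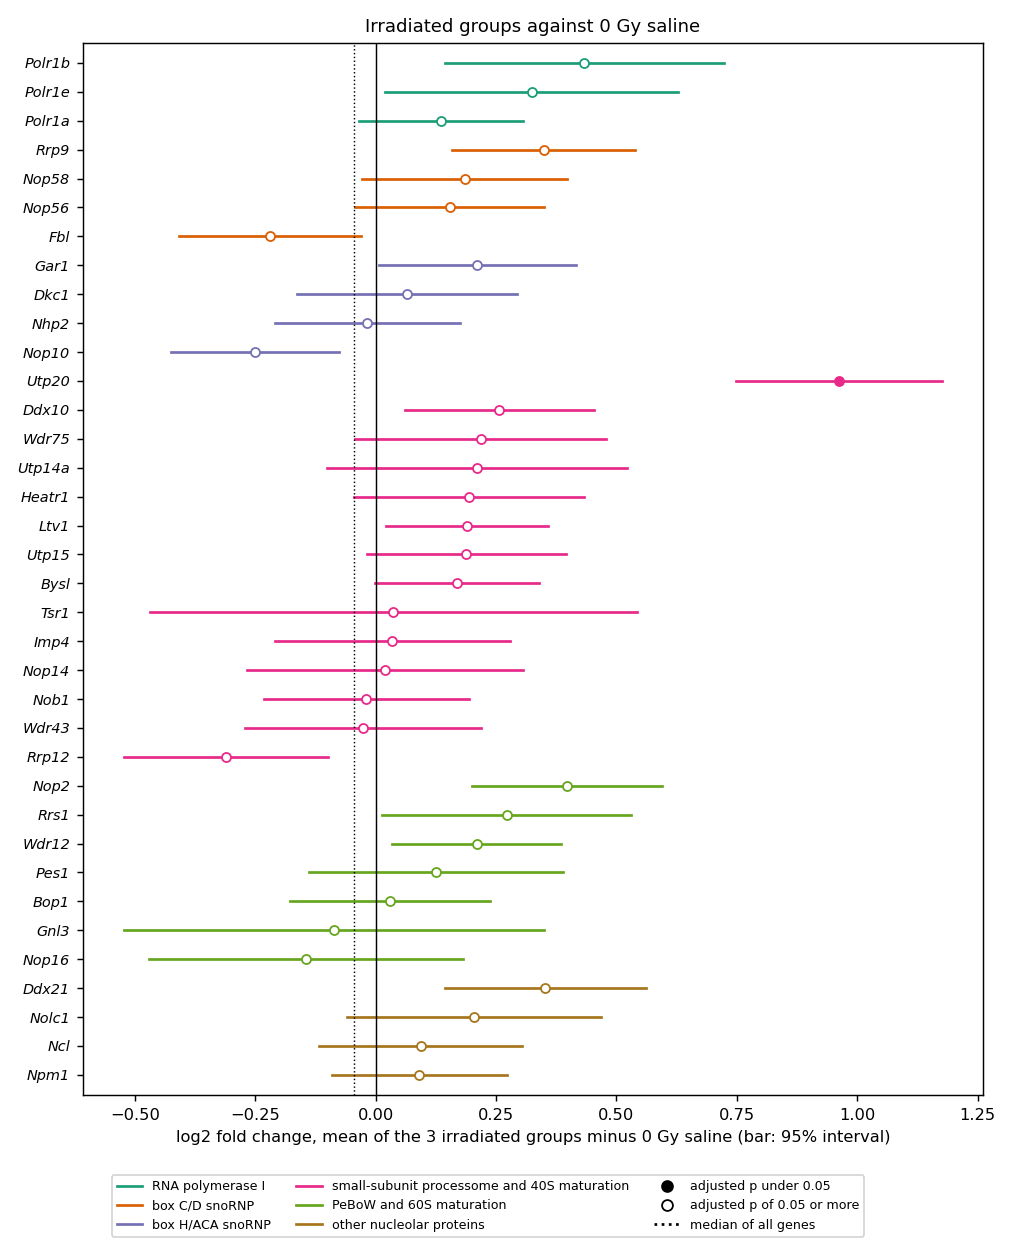
Log2 fold change of each of the 36 measured genes, mean of the 3 irradiated groups minus 0 Gy saline, with bars for the 95% interval, colours for role and a dotted line at the median of all genes (-0.04). Utp20 at 0.96 is the only filled point (adjusted p under 0.05), and 28 of the 36 points lie above 0.

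Group by group, against the same 2 arrays of 0 Gy saline, the genes had medians of 0.16 in 8 Gy FGF1/CPP-C, 0.16 in 8 Gy FGF1 and 0.15 in 8 Gy saline, against -0.02, -0.05 and -0.05 over all genes. Utp20 was the 1 gene that passed in each, upward, where 1.23%, 0.615% and 0.331% of all genes passed upward and 0.771%, 0.284% and 0.0918% downward. In the same order, 24, 29 and 30 of the 36 were positive, against 46.9%, 42.4% and 40.2% of all genes. Without overlap, 21 of 36 were higher and 4 lower in 8 Gy FGF1/CPP-C (29.2% and 30.7% of all genes), and 22 of 36 were higher and 4 lower in 8 Gy FGF1 (23% and 28.3%). In 8 Gy saline, 21 of 35 were higher and 3 lower (15.3% and 23.1%). With 2 arrays against 2, an exact permutation test of a single gene cannot go below a p of 0.333.

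The pretreatments were compared with saline and with each other among irradiated mice, which compares levels after irradiation. No group received either agent without radiation, so a changed response cannot be told apart from an effect of the agent on unexposed tissue. None of the 36 genes passed in any of the 3 comparisons by limma. In all, 0 genes rose and 2 fell (0.00917%) in FGF1/CPP-C against saline, none rose or fell in FGF1 against saline (0%), and 0 rose and 2 fell (0.00917%) in FGF1/CPP-C against FGF1. At an unadjusted p under 0.05, Rrp9 was higher and Pes1 and Nop16 were lower in FGF1/CPP-C against saline (7.38% and 4.54% of all genes), none differed in FGF1 against saline (0.995% and 0.739%), and Pes1 was lower in FGF1/CPP-C against FGF1 (5.47% higher and 3.53% lower over all genes). The median differences of the 36 genes on the log2 scale were 0.0028 for FGF1/CPP-C against saline, 0.0095 for FGF1 against saline and -0.017 for FGF1/CPP-C against FGF1, against 0.037, 0.013 and 0.017 over all genes.

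Between FGF1/CPP-C and saline after 8 Gy, 9 of 35 genes were higher and 6 lower without overlap, where 25.2% and 19.2% of all genes were. Rrp9 was the highest at 0.25 (interval 0.02 to 0.48; adjusted p = 0.406 by limma), followed by Ddx21 at 0.16 (-0.10 to 0.41) and Utp14a at 0.16 (-0.22 to 0.54). The lowest were Nop16 at -0.42 (interval -0.82 to -0.02; adjusted p = 0.408 by limma), Pes1 at -0.34 (-0.66 to -0.01) and Tsr1 at -0.30 (-0.92 to 0.32). The FGF1/CPP-C arrays also had the lowest crypt base stem cell medians, -1.64 and -1.70, against -1.45 and -0.11 in 8 Gy saline. The summed levels of that list overlapped, at 14.4 and 11.3 against 13.2 and 18.3. The FGF1/CPP-C arrays had little of the Tff2 and Gkn3 signal described above. The part of these markers in the differences was not tested. For Utp20 the difference was 0.10, and its interval of -0.16 to 0.37 bounds what these arrays can show. Without 8 Gy saline array 2, 1 of the 3 arrays high in antrum markers, the Tsr1 difference was 0.0061, that of Nop16 -0.26 and that of Pes1 -0.17. The second, dimmer Pes1 probe gave -0.06 with all arrays. The Utp14a difference was -0.07 with the mean of its 2 probes and -0.01 without FGF1/CPP-C array 1. The second, dimmer Ddx21 probe gave -0.12, the opposite sign to the one used.

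Between FGF1 and saline after 8 Gy, 7 of 35 genes were higher and 3 lower without overlap (11.1% and 7.83% of all genes). Rrp9 was again the highest at 0.22 (interval -0.01 to 0.46), with Nop2 at 0.18 (-0.10 to 0.47) and Bop1 at 0.16 (-0.09 to 0.42). The lowest were Nop16 at -0.14 (-0.54 to 0.26), Tsr1 at -0.12 (-0.74 to 0.49) and Nop10 at -0.12 (-0.33 to 0.09). Without 8 Gy saline array 2, Nop16 was at 0.02 and Tsr1 at 0.18, and without FGF1 array 2 Tsr1 was at 0.08. Both pretreatment groups were set against the same 2 arrays of 8 Gy saline.

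FGF1/CPP-C and FGF1, which differ by the peptide CPP-C, were compared directly after 8 Gy. Of 36 genes, 2 were higher and 7 lower without overlap (24.7% and 20.9% of all genes). The highest were Utp14a at 0.18 (interval -0.20 to 0.57), Polr1b at 0.16 (-0.20 to 0.51) and Utp20 at 0.15 (-0.11 to 0.41). Pes1 was the lowest at -0.34 (-0.66 to -0.02; adjusted p = 0.532 by limma), followed by Nop16 at -0.28 (-0.68 to 0.12) and Tsr1 at -0.18 (-0.80 to 0.44). Pes1 was lower after FGF1/CPP-C than after FGF1 on both slides, with differences of -0.29 and -0.39. Its second, dimmer probe gave 0.09, the opposite sign, and the mean of its probes gave -0.12. Without FGF1 array 1, Tsr1 was at 0.03 and Nop16 at -0.19, and with the mean of its probes Utp14a was at -0.03.

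**Figure D5:**
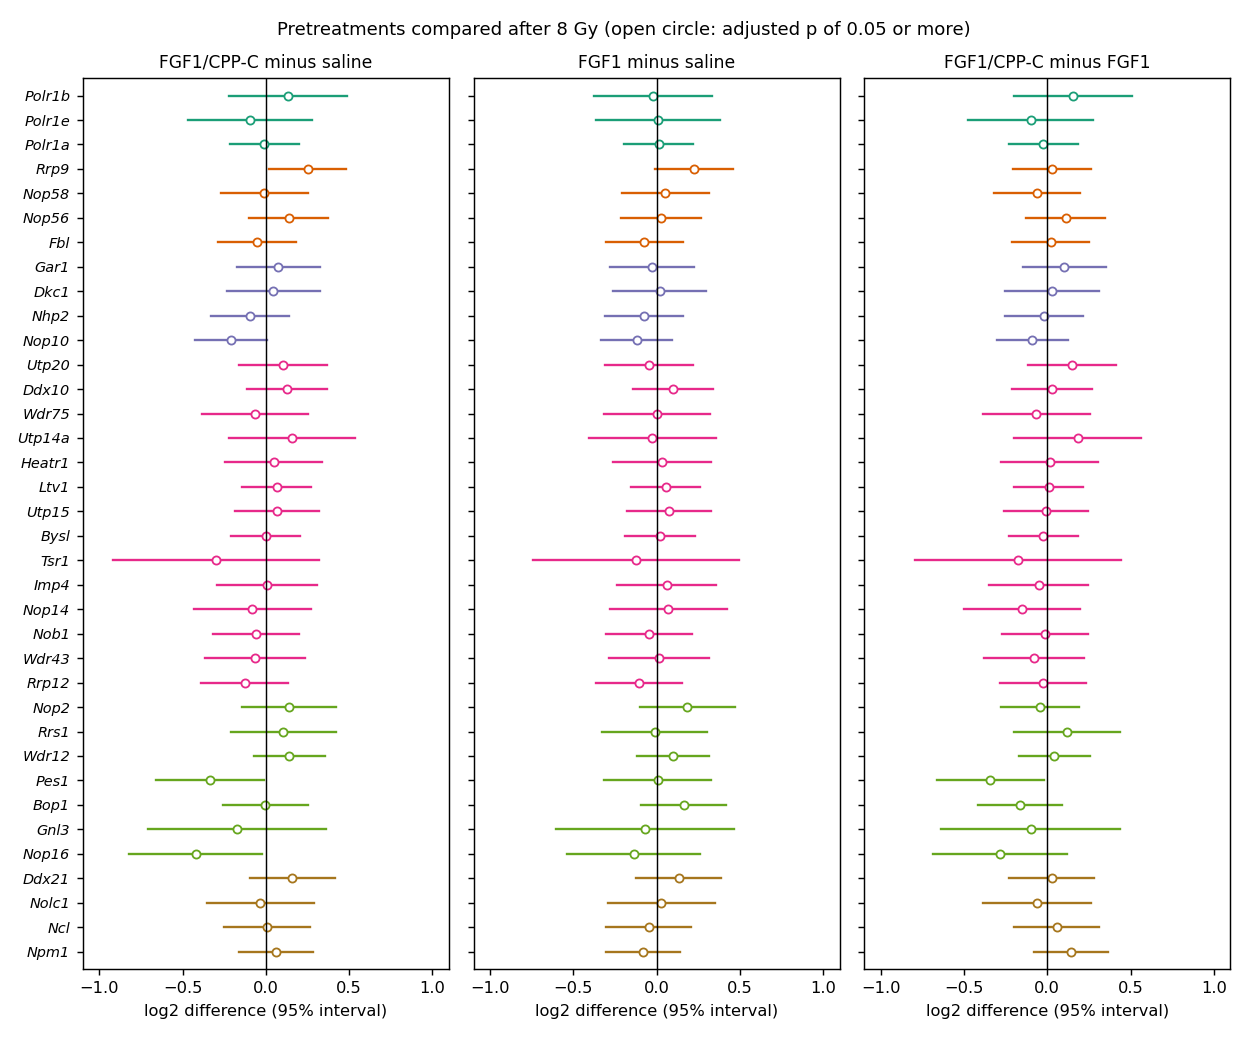
Log2 difference of each of the 36 measured genes between the irradiated groups, with bars for the 95% interval, in 3 panels for FGF1/CPP-C minus saline, FGF1 minus saline and FGF1/CPP-C minus FGF1. All points are open because none passed, and the widest intervals are those of Tsr1 (-0.92 to 0.32 in the first panel).

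The rest of the ribosome-building machinery was described from lists of other genes, set beside the 36. Over all genes, 1.33% passed upward in the irradiated mean, 42.5% were positive and the median was -0.04. After irradiation, 2 of 52 other large-subunit factors passed, both upward, and the list's median was 0.13, with 46 of 52 positive. They were Rbm34, a nucleolar RNA-binding protein, at 0.56 ± 0.08 (adjusted p = 0.0342 by limma), and Brix1, an assembly factor of the large subunit, at 0.45 ± 0.07 (0.0389). Brix1 had 1.18 and 1.21 after FGF1/CPP-C, 1.13 and 1.14 after FGF1, 1.11 and 1.15 in 8 Gy saline, and 0.73 and 0.68 in 0 Gy saline. The lowest of the list was Sdad1, a factor of large-subunit export, at -0.59 (adjusted p = 0.0886 by limma). Of 40 other small-subunit factors none passed, with a median of 0.10 and 26 positive, Riok1, a late-acting kinase, being highest at 0.34 and Utp6 lowest at -0.20. None passed among 11 other RNA polymerase I genes (median 0.07; Taf1b, of the promoter selectivity factor, at 0.42 and Ubtf, which opens ribosomal DNA, at -0.22), 11 snoRNP assembly factors (0.06; Nufip1 at 0.26 and Shq1 at -0.18), 14 genes of the RNA exosome, which trims precursors (0.04; Exosc6 at 0.15 and Exosc10 at -0.25), and 16 genes of RNA polymerase III, which makes 5S RNA and transfer RNA (0.05; Polr3e at 0.40 and Polr3k at -0.16). Ubtf was not lower in every irradiated group. It had 5.28 and 5.13 after FGF1/CPP-C, 4.72 and 4.69 after FGF1, 4.67 and 4.87 in 8 Gy saline, and 5.06 and 5.16 in 0 Gy saline.

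The 78 measured genes of cytosolic ribosomal proteins, the product side of the pathway, had a median of -0.03, against -0.04 over all genes. Positive differences were found in 17, against 42.5% of all genes, and none passed the test. Rps27l, known as a p53 target, was the highest of them at 0.39 (adjusted p = 0.0720 by limma). Myc had -1.08 and -0.96 after FGF1/CPP-C, -0.96 and -1.37 after FGF1, -1.22 and -1.34 in 8 Gy saline, and -1.74 and -1.70 in 0 Gy saline. It was higher on all 6 irradiated arrays, by 0.57 ± 0.12 (adjusted p = 0.0771 by limma), and no gene of the 11 measured in the MYC network passed (median 0.05), its lowest being Mxd3, which encodes a partner of MAX, at -0.65. Mdm2, the ubiquitin ligase that restrains p53 and binds free ribosomal proteins, passed upward, where 1.33% of all genes did. It was the only one of 6 nucleolar stress and p53 regulators to pass. It had 3.93 and 3.94 after FGF1/CPP-C, 3.84 and 3.91 after FGF1, 3.63 and 3.94 in 8 Gy saline, and 2.57 and 2.78 in 0 Gy saline, a rise of 1.19 ± 0.11 (adjusted p = 0.0111 by limma).

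Of 10 proliferation genes, 5 fell in the irradiated mean against 0 Gy saline (1.07% of all genes), with a list median of -0.48. The list did not go 1 way, for 3 of the 10 had positive differences, the highest being Pcna, the replication clamp, at 0.48 (adjusted p = 0.0882 by limma), and at an unadjusted p under 0.05, 2 were higher and 7 lower. The 5 were Ccnb2 and Ccnb1, cyclins of mitotic entry, at -1.57 and -1.11, Mki67 at -0.75, Birc5, a protein of the chromosomal passenger complex, at -0.74, and Cdk1, the kinase those cyclins activate, at -0.57. Ccnb1 had -1.61 and -1.45 after FGF1/CPP-C, -1.87 on both arrays after FGF1, -1.78 and -1.69 in 8 Gy saline, and -0.75 and -0.46 in 0 Gy saline. Without 0 Gy saline array 1 or array 2, none of the 5 stayed past the threshold in the irradiated mean (adjusted p = 0.0743 to 0.291 by limma). Mdm2, Brix1 and Rbm34 also missed it without either of these arrays, with 0.0928 to 0.291. Brix1, Rbm34, Mki67, Birc5 and Cdk1 missed it without any 1 array of FGF1 or FGF1/CPP-C (0.0660 to 0.126), and Cdk1 also without either 8 Gy saline array (0.0528 and 0.0636). Mdm2 and Ccnb1 missed it without either FGF1 array (0.0511 to 0.0578), and Ccnb2 without either FGF1/CPP-C array (0.0532 and 0.0582). Without the 3 arrays high in antrum markers none of the 8 passed (0.281 to 0.309).

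The 10 lists held 247 genes tested for the irradiated mean, of which 38 were higher and 11 lower at an unadjusted p under 0.05, shares to be read beside the 9.3% and 11.3% of all genes. Against 0 Gy saline, 8 Gy FGF1/CPP-C had Mdm2 and Rbm34 higher and Ccnb1 and Ccnb2 lower past limma's adjusted threshold. In 8 Gy FGF1, Mdm2 passed upward and Ccnb1, Ccnb2, Mki67 and Birc5 downward, and in 8 Gy saline Mdm2 passed upward and Ccnb1 and Ccnb2 downward. Each of these 12 calls was lost without any 1 array of 0 Gy saline, FGF1 or FGF1/CPP-C (adjusted p = 0.0616 to 0.305 by limma). Without either 8 Gy saline array, those of 8 Gy saline (0.0607 to 0.165) and Mki67 in FGF1 (0.0523) were lost as well. Between pretreatments, none of the 247 genes passed by limma. At an unadjusted p under 0.05, 8 were higher and 2 lower in FGF1/CPP-C against saline (7.38% and 4.54% of all genes), 0 differed in FGF1 against saline (0.995% and 0.739%), and 10 were higher and 3 lower in FGF1/CPP-C against FGF1 (5.47% and 3.53%). Of these 10, 6 were proliferation genes. All 10 genes of that list had positive differences in FGF1/CPP-C against FGF1, where 53.6% of all genes did. Their median was 0.35, 9 were higher without overlap (24.7% of all genes), and none passed (smallest adjusted p = 0.407 by limma). They were also positive in FGF1/CPP-C against saline (56.6% of all genes), with a median of 0.20 and 6 of 9 higher without overlap (25.2%). In FGF1 against saline, 9 of 10 were negative, with a median of -0.15, where 53.9% of all genes were positive.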

How the data were processed

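Per the labels' protocols, RNA of the small intestine was extracted with Trizol and an RNeasy kit, labelled with Cy3 in a single colour and hybridised to Agilent mouse arrays. The deposited scanner files hold the processed intensity of each spot, background-subtracted by Agilent Feature Extraction 9.5.3.1 per the file headers and the submitters' processing notes. The series matrix holds the same intensities. The sources used here give no scaling between arrays by the authors.

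Control spots and outlier-flagged spots were left out, saturated spots were kept, and spots of a probe were averaged. Each array's log2 intensity, computed from the deposited values, was set against its 75th percentile, with a floor of -6.74. Probes not well above background on both arrays of any group were dropped, which left 27559 of 39429 probes, and the brightest probe stood for a gene (21843 genes, 4669 of them with several probes). RefSeq names (GRCm38.p6) were matched by accession for 28330 probes and by symbol for 2204, and 8895 kept the file's name. The arrays' number limits the precision.

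limma 3.58.1 in R 4.3.3 fitted 4 group means to all 8 arrays, with 4 residual degrees of freedom, and eBayes moderated the spread. Benjamini-Hochberg adjustment ran over all genes of each of 7 comparisons, with a threshold of 0.05. The fit was tested on simulated data with known changes. Figures used matplotlib 3.10.9 in Python 3.11.15 with pandas 2.3.3, and data.table (version 1.17.8) read the files.

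The members and lists were chosen with earlier results of these data known. Genes named with every array's value were those past the threshold, those at least 1.5-fold apart without overlap, and the 3 highest and 3 lowest in a comparison. From each list of other genes those that passed are named, or otherwise the highest and lowest, 1 of which is not reported here. A few further genes were singled out after their values were seen: Polr1a, Fbl, Ddx10, Ltv1, Bysl, Wdr43, Gnl3, Sdad1, Pcna, Tff2, Brix1 in full, Myc in full and members with a second or misplaced probe. The same holds for Ubtf in full and for Gkn3 and the other antrum markers named.

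The replicate number marks the slide. Deviations of same-numbered arrays from their group means correlated between groups at -0.521 to 0.538, so the numbers were not taken to pair the samples, and the slide was a block in an alternative only. The 21 alternative settings covered normalisation, background correction, the series matrix, filters, probe choice, arrays in the fit, the slide, moderation and arrays left out.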

Additional observations from a re-analysis of the deposited data

How the results depend on the processing

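Of 21 alternative settings, 19 gave a test, and restriction to the groups compared could not be run for the irradiated mean. No scaling moved the median of all genes by more than 0.093. Medians below are log2 differences of the measured genes. "Members" stands for the ribosome biogenesis genes past the adjusted threshold and "genes" for all genes past it. The cause of each change was not tested, except that fits with fewer arrays have less to estimate the spread from.

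In 8 Gy saline against 0 Gy saline (1 member, 92 genes), members were 0 and genes 34 with the series matrix, 0 and 42 with no filter on dim probes, 0 and 0 with only the groups compared, 0 and 37 with the replicate block, 0 and 0 without the 3 arrays high in antrum markers, and genes were 143 with trend and robust moderation. In FGF1 against 0 Gy saline (1 member, 196 genes), members were 0 and genes 53 with the series matrix, 0 and 2 with only the groups compared, 0 and 76 with the replicate block, 0 and 0 without the 3 arrays, and genes were 299 with normexp and 370 with trend and robust moderation. With no filter the count stayed at 1, but Utp20 missed the threshold (adjusted p = 0.0502 by limma) and Nop2 passed (0.0405). In FGF1/CPP-C against 0 Gy saline (1 member, 436 genes, median 0.16), the series matrix gave a median of 0.10, 0 members and 105 genes. It moved the median over all genes from -0.0227 to -0.0869. In the same comparison, members were 2 and genes 258 with no filter, 0 and 10 with only the groups compared, 2 and 710 with trend and robust moderation, 0 and 0 without the 3 arrays, genes were 174 with the replicate block, and the median was 0.10 within slide 1. In the irradiated mean (1 member, 522 genes), members were 2 with normexp, with no filter and with trend and robust moderation, the additional gene being Nop2. Members were 0 and genes 146 with the series matrix, where Utp20 had an adjusted p of 0.0503 by limma, and 0 and 0 without the 3 arrays, and genes were 243 with the replicate block.

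Between pretreatments no setting gave a member past the threshold. For FGF1 against saline (median 0.0095, 0 genes), the median was -0.0428 with the series matrix, 0.0697 within slide 1 and -0.0504 within slide 2, and 2 genes passed with all probes averaged. The median over all genes moved as well with the series matrix, from 0.0131 to -0.039. For FGF1/CPP-C against saline (median 0.0028, 2 genes), the series matrix gave a median of -0.0913 and 0 genes, and genes were 6 with quantile normalisation, 4 with normexp, 5 with no filter, 1 with the filter on all 8 arrays, 7 with all probes averaged and 0 without the 3 arrays. Over all genes, the series matrix moved this median from 0.0365 to -0.0565. For FGF1/CPP-C against FGF1 (median -0.017, 2 genes), genes were 13 with quantile normalisation, 10 with normexp, 0 with the series matrix, 1 with the filter on all 8 arrays, 11 with all probes averaged, 1 with only the groups compared, 8 with trend and robust moderation and 0 without the 3 arrays, and the median was -0.0937 within slide 1 and 0.0493 within slide 2.

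Signs turned for 3 genes, none past the threshold. With all probes averaged, Utp14a was at -0.0686 for FGF1/CPP-C against saline and at -0.0278 for FGF1/CPP-C against FGF1. Without the 3 arrays, Tsr1 was at 0.0061 for FGF1/CPP-C against saline and at 0.0326 for FGF1/CPP-C against FGF1. Leaving out 1 array gave ranges of -0.4329 to 0.1829 for Tsr1 and -0.2963 to 0.0228 for Nop16 in FGF1 against saline. The ranges were -0.6098 to 0.0061 for Tsr1 and -0.0125 to 0.3255 for Utp14a in FGF1/CPP-C against saline, and -0.3863 to 0.0326 for Tsr1 in FGF1/CPP-C against FGF1.

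Leaving out 1 array at a time gave medians of 0.10 to 0.15 for 8 Gy saline, 0.15 to 0.19 for FGF1 and 0.10 to 0.17 for FGF1/CPP-C, each against 0 Gy saline, and 0.15 to 0.17 for the irradiated mean. The ranges were -0.0082 to 0.0502 for FGF1 against saline, -0.0632 to 0.0482 for FGF1/CPP-C against saline and -0.053 to 0.023 for FGF1/CPP-C against FGF1. Members ranged from 0 to 0 in 8 Gy saline against 0 Gy saline and between pretreatments, and from 0 to 1 elsewhere. Genes ranged from 0 to 41 in 8 Gy saline, 0 to 171 in FGF1 and 1 to 846 in FGF1/CPP-C, each against 0 Gy saline, and from 0 to 650 in the irradiated mean. They ranged from 0 to 0 for FGF1 against saline, 2 to 7 for FGF1/CPP-C against saline and 2 to 5 for FGF1/CPP-C against FGF1. In these fits a group's lone array is assumed to vary like the other groups. With the replicate block Utp20 kept its call in the irradiated mean (adjusted p = 0.0196 by limma), while Brix1 (0.0694), Rbm34 (0.0631), Birc5 (0.0519) and Cdk1 (0.0721) did not. Leaving out probes annotated to another chromosome than their gene, chosen after seeing the data, measured 35 members and changed no call among them. Probes without a position were kept, among them the only ones of Rrp9, Rrp12, Nop14 and Nob1, so this setting did not check those.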
